A study of Mus musculus with 6 samples.

Results

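The Ifi200 genes, also called the PYHIN or HIN-200 family, form a cluster on the distal arm of mouse chromosome 1. Most of their proteins carry an amino-terminal pyrin domain, which binds partner proteins, or a HIN domain, which binds double-stranded DNA, or both. Aim2 is a cytosolic DNA sensor that assembles an inflammasome with the adaptor Pycard and caspase-1, Ifi204 (p204) is a mouse counterpart of human IFI16 and acts upstream of Sting, and Ifi202b lacks the pyrin domain and can hold Aim2 in check. Ifi203, Ifi205 and Mndal (myeloid nuclear differentiation antigen like) are nuclear relatives first known from interferon-treated and haematopoietic cells. Many genes of the family are textbook interferon-stimulated genes.

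The members were taken by name: Ifi202b, Ifi203, Ifi204, Ifi205, Aim2 and Mndal. Of these 6 names, 5 were found on the array with 10 probes, out of 36163 named genes and 55681 probes. No probe carried the name Ifi205. A single probe named Mnda lists an Ifi205 transcript beside one that RefSeq now assigns to Ifi211, so it was kept with the other family genes and not counted as a member.

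Expression was measured on 6 single-colour Agilent arrays of N18-Fms cells, a mouse prostate tumour line. N18 is a single luciferase-transfected clone of the C2H line, which came from a tumour of the TRAMP transgenic model. The c-fms cDNA, which encodes the CSF-1 receptor, was introduced with a retrovirus and the transduced cells were sorted by flow cytometry, so all 6 arrays, the unstimulated ones included, carry the receptor, and the medium of every group held serum and dihydrotestosterone. Of the arrays, 2 were of unstimulated cells (Control), 2 of cells kept 24 h with recombinant mouse CSF-1 (100 ng/mL) and 2 of cells kept 48 h with the same dose. The labels attribute the RNA to 2 independent experiments without tying an array to either. Cells without the receptor given CSF-1 were not analysed here, and a single clone stands for the tumour. The labels give Control no time in culture, and the same Control served both times. Effects of CSF-1 and of hours in culture therefore cannot be told apart.

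Each value below is the log2 of the background-subtracted spot signal minus the log2 of the array's 75th percentile, so 0 marks a signal equal to that percentile. A spot was counted as measured where the scanner software flagged it well above background. Levels of different probes are not comparable with each other, because probes differ in how brightly they hybridise. A gene was called changed at a Benjamini-Hochberg adjusted p under 0.05 over 24648 genes and a change of at least 2-fold, in a limma fit over all 6 arrays.

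The probes are 60 bases long and lie between Aim2, the first member along the chromosome, and Ifi202b. Coordinates follow the mouse build mm9 as the array files give them. The sequences of 3 member probes with an open reading frame are shown to make plain what was hybridised; each lies on the minus strand, and the Ifi202b probe spans an exon junction.
Ifi203 probe A_55_P1966731 at chr1:175854206-175854265: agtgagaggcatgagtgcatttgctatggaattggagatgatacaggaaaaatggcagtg
Mndal probe A_65_P17218 at chr1:175787550-175787609: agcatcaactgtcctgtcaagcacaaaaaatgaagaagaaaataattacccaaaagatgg
Ifi202b probe A_51_P151182 at chr1:175892953-175893982: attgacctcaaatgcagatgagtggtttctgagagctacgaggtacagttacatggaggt
Family genes are paralogs, so the probe sequences were compared with each other. Over the 213 pairs of probes from different family genes, the longest exact run shared by a pair was 11 bases, and the best ungapped overlay matched 31 bases. Comparing probes with each other cannot show whether a probe picks up the transcript of another gene, and that was not tested. The array itself lists the transcripts ENSMUST00000090406 and ENSMUST00000097463 for probes of 2 family genes, A_55_P2082319 of BC094916 and A_55_P2036357 of Pyhin1.

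Promoters are shown because most of the family moved together. RefSeq (GRCm38.p6) gave windows from 250 bases before to 50 bases after the annotated start for 5 of the 6 members. The windows were searched on both strands for the core of the interferon-stimulated response element (ISRE: GAAA, any 2 bases, GAAA) and for the core of the gamma-activated site (GAS: TTC, any 3 bases, GAA), which no ISRE core overlapped in the family's windows. The 160 bases before the start are printed for the 4 member genes that were on the array and had a window, with motif matches in capitals.
Ifi203 promoter, chr1:173942493-173942652, minus strand: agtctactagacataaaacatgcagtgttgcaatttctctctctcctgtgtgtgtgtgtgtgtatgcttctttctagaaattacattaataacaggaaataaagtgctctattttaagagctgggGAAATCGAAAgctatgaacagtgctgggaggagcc
Mndal promoter, chr1:173880188-173880347, minus strand: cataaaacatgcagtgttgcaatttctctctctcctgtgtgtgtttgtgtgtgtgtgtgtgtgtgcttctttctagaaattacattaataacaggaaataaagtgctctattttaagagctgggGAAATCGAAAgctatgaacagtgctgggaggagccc
Ifi202b promoter, chr1:173982845-173983004, minus strand: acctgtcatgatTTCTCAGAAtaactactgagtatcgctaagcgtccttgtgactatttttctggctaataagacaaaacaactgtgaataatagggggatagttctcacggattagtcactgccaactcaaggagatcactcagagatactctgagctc
Aim2 promoter, chr1:173420444-173420603, plus strand: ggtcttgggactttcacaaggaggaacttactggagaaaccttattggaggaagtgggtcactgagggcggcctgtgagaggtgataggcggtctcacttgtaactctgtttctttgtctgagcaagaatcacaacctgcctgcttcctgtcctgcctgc
The ISRE core of Ifi203 lay at bases -35 to -26 from the start and that of Mndal at -36 to -27. The full windows of these neighbouring genes shared an exact run of 139 bases, and 77.2% of the 12-base words of the Mndal window recurred in that of Ifi203. Ifi202b held no ISRE core but a GAS core at -148 to -140, and the Aim2 window held neither. The Ifi205 window held 2 ISRE cores, at -134 to -125 and at 23 to 32. RefSeq lists a second start window for Ifi203, with no match, and for Mndal, with an ISRE core on the opposite strand at -54 to -45.

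Over the 12 family genes with a window, 9 held the ISRE core and 1 the GAS core. Counted by window, 10 of the family's 14 held the ISRE core and 1 the GAS core. Among 32851 mouse promoter windows of the same length, 3.44% held the ISRE core and 8.30% the GAS core. The windows of Ifi206 and Ifi208 shared an exact run of 182 bases, so the family's windows are not independent of each other. A match gives the letters in the window, and binding was not measured.

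**Figure D1:**
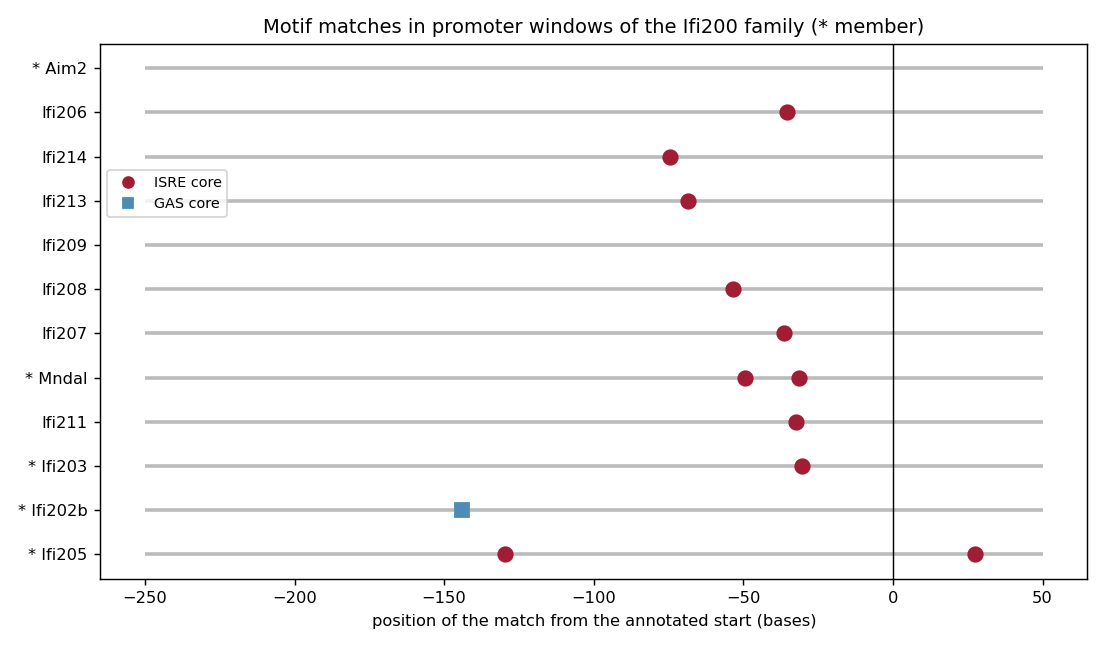
Positions of motif matches in the promoter windows of 12 Ifi200 family genes, in RefSeq order along the chromosome, with the horizontal axis in bases from the annotated start; circles mark the ISRE core, squares the GAS core, stars before a name the members, and the 2 windows of Ifi203 and of Mndal are drawn on 1 line each. Of the 12 genes 9 carry the ISRE core, most of them shortly before the start, while Aim2 and Ifi209 carry neither motif.

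The Ifi200 members that could be tested were higher after CSF-1 than in Control at both times. All 4 members that entered the test, Ifi202b, Ifi203, Ifi204 and Mndal, were called higher at 24 h and at 48 h, and their median change on the log2 scale was 3.16 at 24 h and 4.23 at 48 h, against 0.04 and -0.04 over all genes tested. Over all genes tested 4.55% were called higher at 24 h, 3.95% at 48 h and 2.91% at both. Aim2 was not tested, because its probe was well above background on 1 array alone. Ifi202b and Ifi203 entered the test only through groups given CSF-1, where they were high, so the count and the medians lean on that filter. Only Ifi204 and Mndal were well above background on all 6 arrays. At 24 h only 3 of the 4 calls rest on a measured level, since Ifi202b was not well above background on any Control or 24 h array. With each array in turn left out, between 2 and 4 members were called at 24 h and between 3 and 4 at 48 h; the count of 2 came without Control replicate 2 and without 24 h replicate 2, where Ifi202b and Ifi204 missed the threshold.

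**Figure D2:**
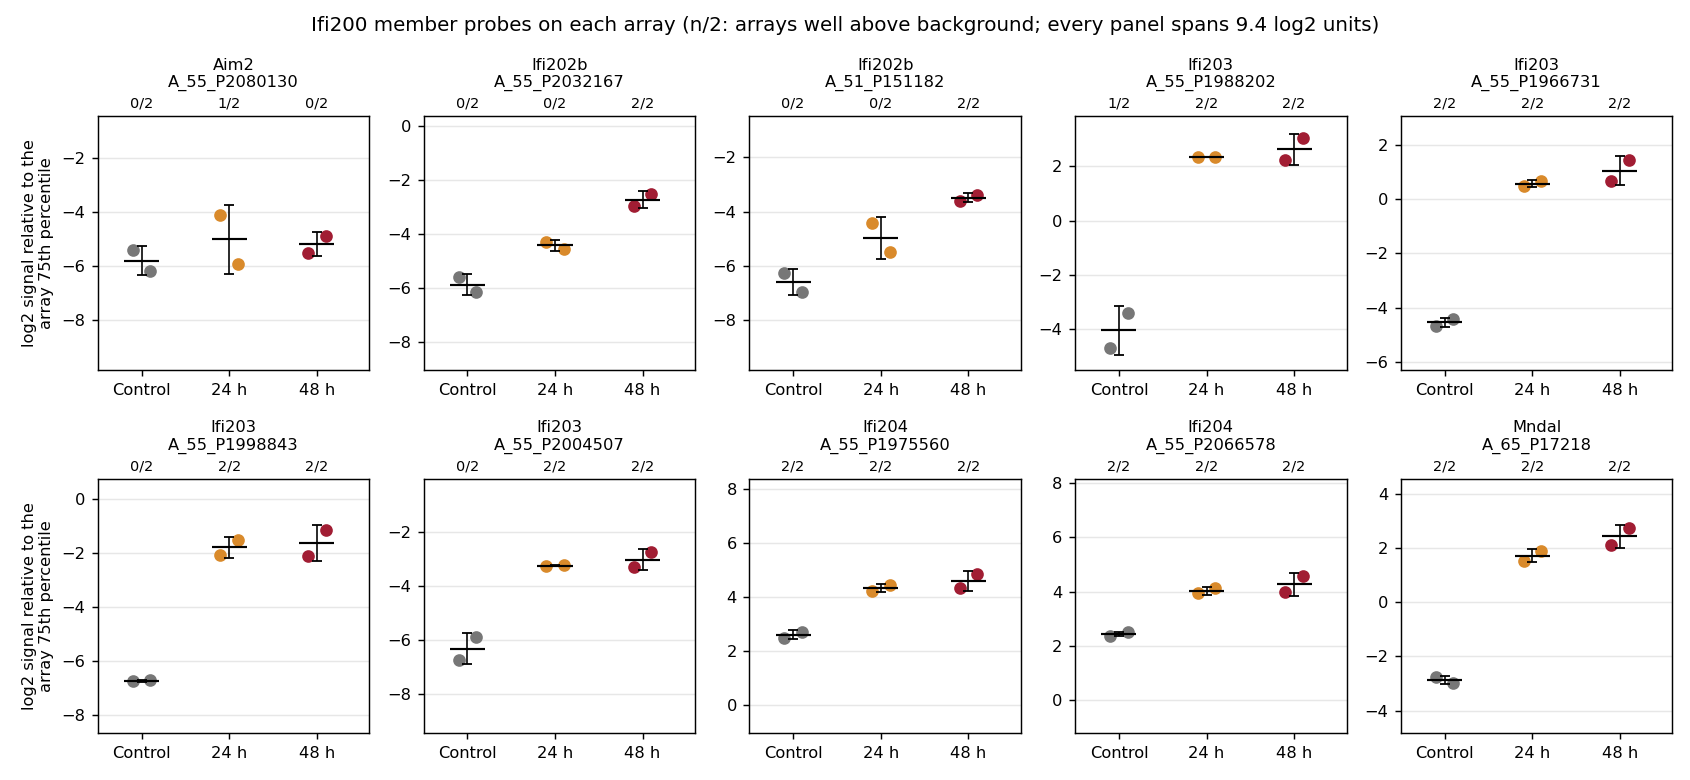
Log2 signal relative to the array's 75th percentile for the 10 member probes on each of the 6 arrays; dots are arrays, bars the mean and SD of 2 arrays, and the fractions above each panel give the arrays well above background. Both Ifi202b probes show 0/2 in Control and at 24 h, and the 3 groups overlap on the Aim2 probe.

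Ifi203, read by its brightest probe, had the largest change of the members. That probe, A_55_P1988202 at chr1:175850536-175850595, read -4.72 and -3.41 in Control, 2.35 and 2.36 at 24 h, and 2.23 and 3.05 at 48 h. The stimulated arrays stood more than 5 log2 units above both Control arrays, and the groups given CSF-1 overlapped each other. The change was 6.42 on the log2 scale at 24 h (SE 0.48, n = 2 against 2, limma adjusted p = 0.00309), or 85.4-fold. At 48 h it was 6.70 (SE 0.48, limma adjusted p = 0.00233), or 104-fold. Of the Control arrays 1 was well above background, so the size of these folds leans on a dim baseline. With normexp background correction the changes were 4.63 and 4.90 on the log2 scale, and with the mean of the gene's probes 4.89 and 5.17, the last below the 5.32 of Mndal.

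All 4 probes of Ifi203 rose at both times, but by different amounts. Probe A_55_P1966731, whose sequence is given above and which was well above background on all 6 arrays, read -4.68 and -4.43 in Control, 0.49 and 0.68 at 24 h, and 0.68 and 1.44 at 48 h. It rose by 5.14 at 24 h and 5.61 at 48 h on the log2 scale. The other probes, A_55_P1998843 and A_55_P2004507, were not well above background in Control, so their changes are given as lower limits against a floor. They were at least 8.99-fold and 3.28-fold higher at 24 h, and at least 10.0-fold and 3.82-fold higher at 48 h. A lower limit sets the mean of the bright group against the dimmest signal the software called well above background on each Control array, or against the probe's own signal there if that was higher. That floor is not a detection limit, since some spots above it were not flagged well above background. The limits hold only for the background-subtracted signal used here, and with normexp a change can fall under them, as for Ifi202b below. The probes sit at different positions of the transcript, and whether they report different isoforms was not tested.

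Mndal, a nuclear protein of the family, was measured on all 6 arrays by a single probe. It read -2.77 and -2.99 in Control, 1.55 and 1.89 at 24 h, and 2.14 and 2.73 at 48 h. The 3 groups did not overlap, and the order was Control, 24 h, 48 h. The change was 4.60 on the log2 scale at 24 h (SE 0.24, limma adjusted p = 0.00145), 24.2-fold, and 5.32 at 48 h (SE 0.24, limma adjusted p = 0.00104), 39.8-fold. With normexp background correction these changes were 3.71 and 4.43. The step from 24 h to 48 h was 0.72 (95% interval 0.11 to 1.33, limma adjusted p = 0.297).

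Ifi204, the counterpart of IFI16, was already well above background in unstimulated cells. Probe A_55_P1975560 at chr1:175677647-175677706 read 2.50 and 2.72 in Control, 4.23 and 4.44 at 24 h, and 4.32 and 4.86 at 48 h. Both stimulated groups lay above Control, and they overlapped each other. The change was 1.72 on the log2 scale at 24 h (SE 0.21, limma adjusted p = 0.0101), 3.31-fold, and 1.98 at 48 h (SE 0.21, limma adjusted p = 0.00721), 3.94-fold. The other Ifi204 probe, A_55_P2066578, also well above background on all 6 arrays, rose by 1.60 and 1.84. With limma on 5 arrays, the 24 h call was lost without Control replicate 1 (1.61, adjusted p = 0.0564), without Control replicate 2 (1.84, adjusted p = 0.0519) and without 24 h replicate 2 (1.62, adjusted p = 0.0575). The 48 h call was lost without Control replicate 1 (1.87, adjusted p = 0.0520).

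Ifi202b, the family member without a pyrin domain, became measurable at 48 h. Probe A_55_P2032167 at chr1:175892789-175892848 read -5.59 and -6.15 in Control, -4.27 and -4.57 at 24 h, and -2.95 and -2.51 at 48 h. Only the 48 h arrays were well above background, so the gene entered the test through that group alone, where it was high. The groups did not overlap. Set against the floor described for Ifi203, Ifi202b was at least 4.67-fold higher at 48 h than in Control (limma, fitted log2 change 3.14, SE 0.25, adjusted p = 0.00325). With normexp the fitted change at 48 h was 0.90, and 0.86 with normexp and quantile normalization, both under 2-fold. That call was then lost, and the 4.67-fold limit did not hold. By the same kind of floor Ifi202b was at least 2.91-fold higher at 48 h than at 24 h. The fitted difference was 1.69 (95% interval 1.05 to 2.33), with a limma unadjusted p of 0.000854 and a limma adjusted p of 0.121. With normexp that difference was 0.73, under this limit too. At 24 h the fitted change passed the threshold (1.45, SE 0.25, limma adjusted p = 0.0238), but with both groups below background no fold is given. That 24 h call was lost with quantile normalization (0.75, limma adjusted p = 0.0964), with normexp background correction (0.16, limma adjusted p = 0.406) and without any of 3 arrays, Control replicate 2, 24 h replicate 1 or 24 h replicate 2 (1.17 to 1.60, limma adjusted p up to 0.107). The second Ifi202b probe, A_51_P151182, was also measured only on the 48 h arrays, where it was at least 2.75-fold above Control.

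Aim2 gave almost no signal. Its probe, A_55_P2080130 at chr1:175396036-175396095, read -5.43 and -6.19 in Control, -4.13 and -5.91 at 24 h, and -5.51 and -4.88 at 48 h. The 3 groups overlapped, and 24 h replicate 1 was the one array on which the spot stood well above background. That array was also the only one on its slide, and it had the largest share of spots above background, 72.0% against 58.7% to 70.4% on the other arrays; the part of this in the Aim2 value was not tested. A fold is not given, because neither group of any comparison was measured on both arrays. The dim signal bounds what this probe detected and says nothing on Aim2 protein.

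Probe by probe, 8 of the 9 member probes tested were called higher at 24 h and 9 of 9 at 48 h. In the same fit over 34814 probes, 4.48% were called higher at 24 h and 3.60% at 48 h. The member probe that missed the threshold at 24 h was A_51_P151182 of Ifi202b (1.66, limma adjusted p = 0.0595). Apart from the probes of Mndal and Ifi204 and the Ifi203 probe A_55_P1966731, the member probes tested entered only through groups given CSF-1.

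No member was called between 48 h and 24 h, and no gene of the 24648 was, by limma with adjusted p-values (0%). Over all genes that 0 depended on the setting: 112 were called with normexp, 126 with normexp and quantile normalization, 110 with an intensity trend in the prior, 7 with median centring, 5 among genes measured on all 6 arrays and 11 without 48 h replicate 2, and 0 members in any of them. At an unadjusted p under 0.05 and 2-fold, limma gave 560 genes (2.27%), of which 214 (0.868%) were higher at 48 h, among them Ifi202b alone of the members, and the methods' t-test gave 251. The fitted difference was positive in all 4 members, with a median of 0.50 against -0.09 over all genes. For Ifi203 it was 0.29 (95% interval -0.92 to 1.49) and for Ifi204 0.25 (95% interval -0.28 to 0.79); without 48 h replicate 2 these became -0.13 and -0.016. The intervals leave room for a difference in either direction in both genes.

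Of the 6 other family genes on the array, with 12 probes, 3 were called higher at 24 h and 5 at 48 h, and their median log2 changes were 1.82 and 3.83. The array uses older names, which are followed here by the RefSeq name. Pyhin1 (Ifi209) read -2.50 and -2.35 in Control, 1.57 and 2.05 at 24 h, and 2.56 and 2.89 at 48 h, with no overlap between groups. It rose 18.8-fold at 24 h and 35.5-fold at 48 h (limma adjusted p = 0.00145 and 0.000927), and all 3 of its probes gave changes between 4.04 and 4.24 at 24 h and between 4.99 and 5.19 at 48 h on the log2 scale. AI607873 (Ifi207) read -3.22 and -2.32 in Control, 0.42 and 1.01 at 24 h, and 0.97 and 2.30 at 48 h. It rose 11.1-fold and 21.2-fold (limma adjusted p = 0.0171 and 0.00945).

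Mnda, whose probe covers Ifi211 and Ifi205 transcripts, was called higher at both times. It read 2.27 and 2.34 in Control, 3.85 and 4.21 at 24 h, and 4.34 and 4.92 at 48 h. Its changes were 3.31-fold and 5.03-fold (limma adjusted p = 0.0120 and 0.00571). This is the nearest these arrays come to Ifi205, and the part of either transcript in it was not tested.

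Pydc4 (Ifi213) and BC094916 (Ifi214) passed the test at 48 h only, though the difference between the times was not called for either (limma adjusted p = 0.125 and 0.238). Pydc4 entered the test through its 48 h arrays alone, and BC094916 only through its 24 h and 48 h arrays. Pydc4, a pyrin-domain protein, read -6.70 and -6.67 in Control, -5.16 and -6.20 at 24 h, and -3.59 and -3.26 at 48 h, where alone it was well above background. It was at least 2.89-fold above Control at 48 h (limma adjusted p = 0.00690). BC094916 read -7.07 and -4.51 in Control, with 1 of these arrays well above background, -4.06 and -3.69 at 24 h, and -1.25 and -0.58 at 48 h. At 48 h its fitted log2 change was 4.87 (SE 0.82, limma adjusted p = 0.0225). With the dim Control array set to the dimmest signal flagged well above background there, BC094916 was at least 13.1-fold higher.

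Pydc3 (Ifi208) was called at neither time, and its probes disagreed. The brightest, A_55_P2001233, stood for the gene and read 2.26 and 2.39 in Control, 2.42 and 2.45 at 24 h, and 2.51 and 2.59 at 48 h, changes of 0.11 and 0.22 (limma adjusted p = 0.559 and 0.250). Probe A_55_P2036627, near the start of the transcript, was not well above background in Control and was at least 9.40-fold higher at 24 h and 23.9-fold higher at 48 h. Probe A_55_P2181222, next to the flat one, changed by 1.35 at 24 h (limma adjusted p = 0.0924) and 3.19 at 48 h (limma adjusted p = 0.0130). For the flat probe A_55_P2001233 the array also lists the transcript AK165868, which is the transcript given for the Pydc4 probe A_55_P2039230. That probe is therefore not annotated to Pydc3 alone, and the part of either transcript in it was not tested. The gene-level value of Pydc3 depends on which probe is read, and the reason was not tested.

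**Figure D3:**
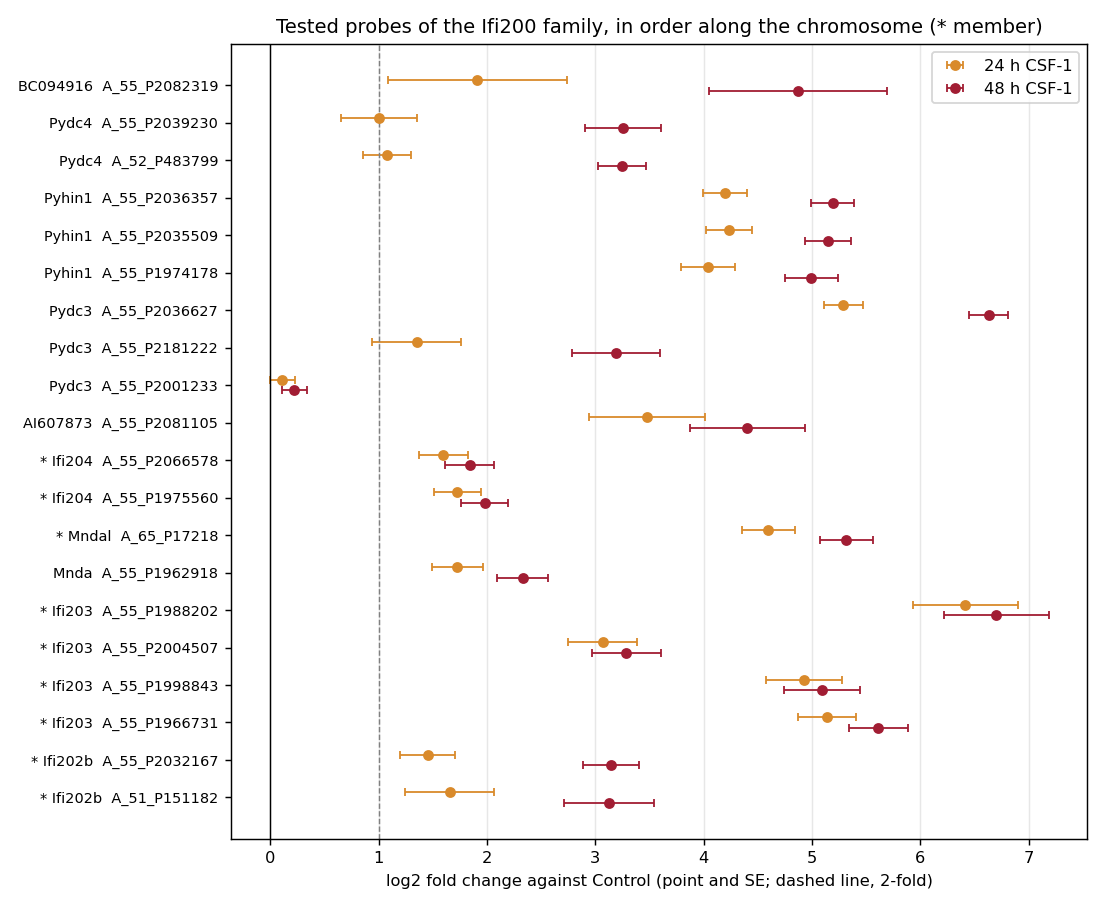
Log2 fold change against Control at 24 h and 48 h for the 20 tested probes of the Ifi200 family, in chromosome order, with SE from the fit; stars mark members and the dashed line 2-fold. Every value is above 0, and the Pydc3 probe A_55_P2001233 at 0.11 and 0.22 is the one that lies under 2-fold at both times.

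The rise also appeared on probes that carry other names, though some of these share a transcript or a position with a family gene. Between the Aim2 and Ifi202b probes lie 35 further probes under 14 other names, of which 34 were tested. All 34 had a positive change at both times, with medians of 2.30 at 24 h and 2.77 at 48 h. Of 13 such names tested, 12 were called at 24 h and 12 at 48 h. The transcript ENSMUST00000037976, between Aim2 and BC094916, had 2 probes. A_55_P2004007, measured on all 6 arrays, rose by 5.30 at 24 h and 6.60 at 48 h on the log2 scale. A_55_P1972582, measured on 1 Control array, was at least 33.2-fold and 88.1-fold higher. In RefSeq order Ifi206 lies between these genes, but the tables used here do not pair it with this transcript name.

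Of the 14 names 6, with 26 of the probes, are chromosome intervals that the array lists around Ifi204 and AI607873, 2 intervals in a forward and a reverse version and 2 in a reverse version only. Others are the transcripts ENSMUST00000042610 and ENSMUST00000111210, the cluster NAP070743-1 and the probes A_55_P2177073 and A_55_P2026238, the last called at 24 h alone. Gm7897 was called at 48 h alone. The array also lists ENSMUST00000111210 among the transcripts of the Ifi203 probe A_55_P1998843, so that name shares an annotated transcript with a member. Overlap of the other names with family transcripts was not tested. Within 500 kb on either side, 10 other names were tested with 12 probes, among them the adhesion gene Cadm3, the spectrin gene Spna1 and olfactory receptors, and 0 were called at either time. Their changes ran from -0.90 to 1.49 at 24 h and from -1.07 to 1.24 at 48 h.

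**Figure D4:**
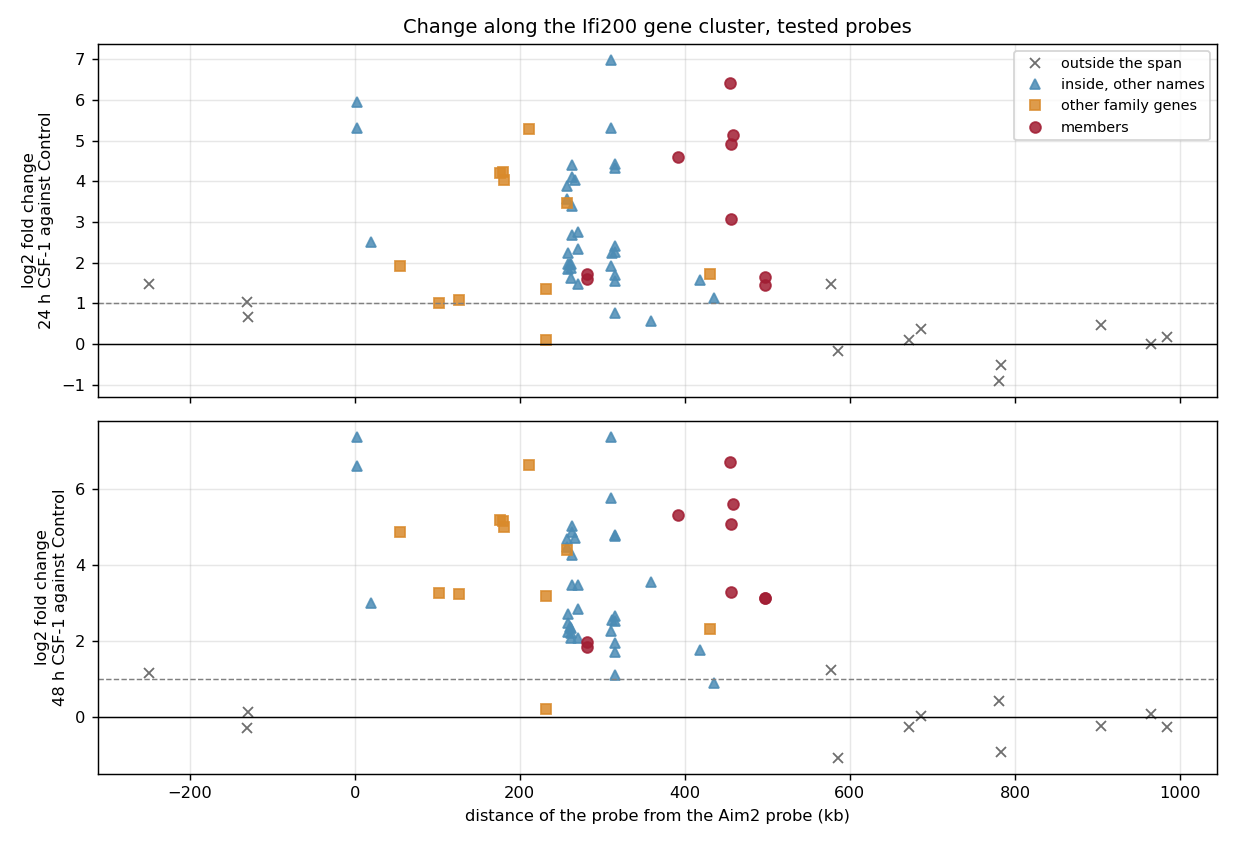
Log2 fold change of every tested probe in the Ifi200 region at 24 h (top) and 48 h (bottom) against the distance of the probe from the Aim2 probe in kb; circles are members, squares other family genes, triangles probes of other names inside the span and crosses probes outside it. Inside the span the 34 triangles and the 20 family probes are all above 0, while the 12 outside lie between -1.07 and 1.49.

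The genes whose log2 values ran nearest to each member over the 6 arrays were taken from 15632 tested genes with a RefSeq symbol, by the root mean square difference of values centred on the gene's mean. Nearest to Mndal were Pyhin1 (0.20) and Oasl1 (0.22), the latter an interferon-induced gene of the oligoadenylate synthetase family. Nearest to Ifi203 were Trim30a (0.36) and Xaf1 (0.38), both known as interferon-stimulated genes. Nearest to Ifi204 were Tnfrsf22 (0.08), a decoy receptor for Trail, and Cyp2j6 (0.08), an epoxygenase. Nearest to Ifi202b were F830016B08Rik (0.19) and Gm11127 (0.23). These distances describe the 6 arrays only.

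Partners of the family were then read from 3 lists. In a list of inflammasome genes, 3 of 16 tested were called higher at 24 h and 4 at 48 h, 0 lower, with medians of 0.48 and 0.39. The list holds the family genes Pydc3 and Pydc4, and Pydc4 is the fourth call at 48 h; without them 3 of 14 were called higher at each time. Casp4, the mouse caspase-11 that senses cytosolic lipopolysaccharide, rose from -0.71 and -0.59 in Control to 2.57 and 2.69 at 24 h and 2.59 and 3.26 at 48 h, log2 changes of 3.28 and 3.57 (limma adjusted p = 0.00289 and 0.00193). Il18, a cytokine cut by caspase-1, was at least 2.85-fold higher at 48 h (limma adjusted p = 0.00315), and 1 of its 24 h arrays was measured. P2rx7, an ATP-gated channel, was at least 2.61-fold and 3.06-fold higher. Il18 and P2rx7 entered the test only through groups given CSF-1. Pycard, the adaptor that Aim2 binds, was measured on all arrays and changed by -0.14 and -0.26 (limma adjusted p = 0.531 and 0.245). Casp1 was well above background on 1 array of 48 h alone, and Il1b on none, so neither was tested.

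In a list of cytosolic DNA sensing genes, 4 of 22 tested were called higher at each time and 0 lower, with medians of -0.09 and 0.02. Irf7, the transcription factor that amplifies interferon production, rose by 3.67 and 4.91 on the log2 scale. Zbp1, a sensor of Z-form nucleic acid, rose by 3.86 and 4.77. Tmem173, which encodes Sting, rose by 1.76 and 1.48, and Trex1, the exonuclease that clears cytosolic DNA, by 1.26 and 1.78. Mb21d1, which encodes cGas and is named E330016A19Rik on the array, changed by -0.31 and -0.34 (limma adjusted p = 0.219 and 0.191).

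In a list of interferon signalling genes, 6 of 15 tested were called higher at each time and 0 lower, with medians of 0.50 and 0.68. Usp18, an interferon-induced brake on the receptor, rose by 6.66 and 8.04 on the log2 scale. Stat2 rose by 2.77 and 3.54 and Irf9, a DNA-binding interferon regulatory factor, by 2.73 and 2.79. Irf1, Socs1 and Jak2 were the other genes called. Ifnb1, the gene of interferon beta, was not well above background on any array and was not tested.

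**Figure D5:**
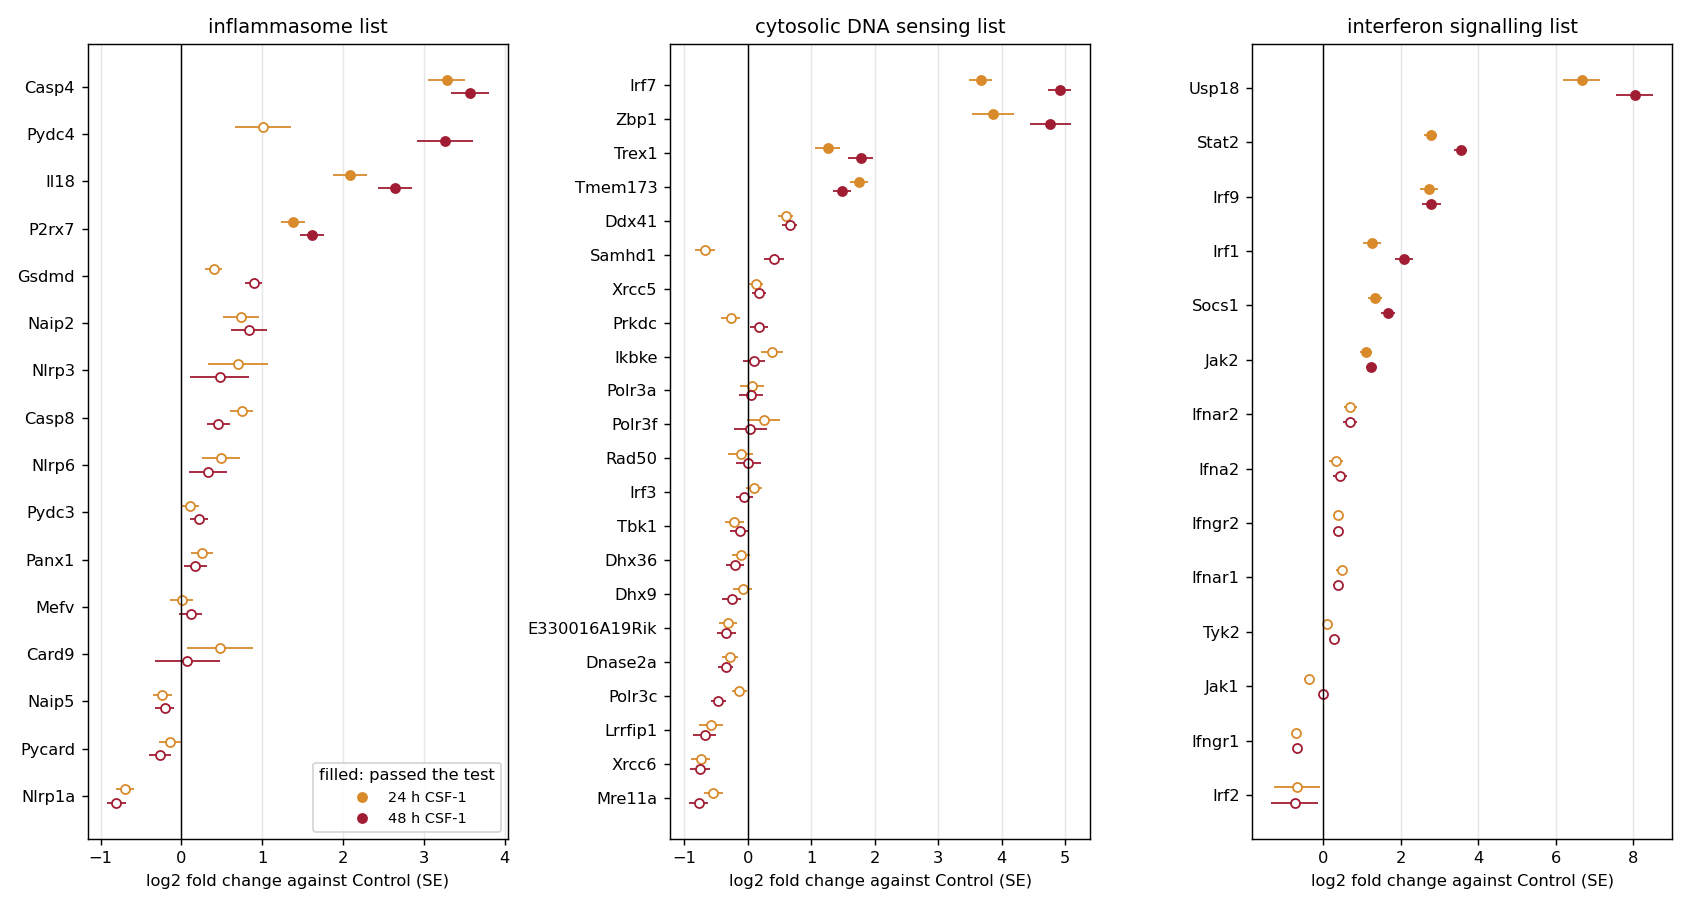
Log2 fold change against Control at 24 h and 48 h, with SE, for tested genes of 3 lists (1 interferon gene is not drawn), of which the inflammasome list includes the family genes Pydc3 and Pydc4; filled points passed the test. The called genes all lie to the right of 0: 3 and 4 in the inflammasome list (Pydc4 among the latter), 4 and 4 in the DNA sensing list, and 6 and 6 in the interferon list.

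Because Ifi200 genes are abundant in macrophages and lymphocytes, markers of these cells were read on the same arrays. Of the 20 macrophage markers on the array, 10 were well above background on both Control arrays, 11 at 24 h and 10 at 48 h, while Lyz2, C1qc and Sfpi1 (Pu.1) were so on no array of any group. Of 12 tested, Cd53 and Mrc1 were called higher at both times and Mpeg1 at 48 h. The summed signal of the list, in multiples of the array's 75th percentile, ran from 44.5 to 50.1 in Control, 38.9 to 46.6 at 24 h and 35.0 to 43.7 at 48 h. Of 6 lymphocyte markers tested 0 were called, with 10 listed and summed signals of 19.3 to 24.3, 21.7 to 24.0 and 22.2 to 30.7. Cd3g and Ms4a1 were well above background in no group. Of 11 prostate epithelial markers, Krt8, Krt5 and Krt14 were well above background on all 6 arrays, whereas Cdh1 and Hoxb13 were so in no group; Krt8 was the only one called, at 48 h, and the summed signals ran from 1.93 to 2.38, 2.11 to 2.13 and 2.74 to 2.79. In bulk RNA, more cells with a transcript and more transcript per cell cannot be told apart, and the part of marker changes in the Ifi200 values was not tested.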

How the data were processed

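Agilent Feature Extraction 11.0.1 (per the labels) made the scanner output of the 6 single-colour arrays. The spot intensity that the authors deposited is linear and background-subtracted, with no normalization between arrays. Log2 values that the authors deposited in a separate table served as an alternative; over 44323 shared probes, 99.78% of the differences between arrays fell within 0.05 of those computed here. The methods name a 2-sided Student test for the study in general and GeneSpring for the arrays; the normalization behind the array comparisons is not given in the sources used here.

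Outlier-flagged spots were left out, which removed 303 probes, repeated spots were averaged, and each array's 75th percentile was subtracted on the log2 scale. The brightest probe stood for a gene. A gene entered the test where some group had both its arrays well above background, with limma 3.58.1 in R 4.3.3 (2-sided, 3 residual and 2.39 prior degrees of freedom). With 2 arrays a group, an exact permutation test cannot go below 0.333. On simulated data, 93.5% (24 h) and 93.0% (48 h) of 200 genes changed by 3 log2 units among 24648 were recovered. Between 58.7% and 72.0% of 59305 spots were well above background and 0 were saturated; the number of arrays limits the precision.

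The labels give 24 h and 48 h, which were used; the methods text gives shorter times. The members and lists were chosen with earlier results of these data known. Named were all members and their probes, every other family gene, the nearest genes in pattern, called neighbours, and in each list the 3 largest changes called at both times plus 13 genes of known role; Irf1, Socs1, Jak2, Trex1, Mpeg1, Krt8, Cadm3, Spna1 and the markers at background were added after their values were seen. Alternatives covered normalization, background correction, filters, probe choice, test, slide, replicate number and arrays left out. Single values of some listed markers are not reported here.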

Additional observations from a re-analysis of the deposited data

How the results depend on the processing

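The called member counts were 4, 4 and 0 for 24 h against Control, 48 h against Control and 48 h against 24 h. With only the genes well above background on all 6 arrays, 2 members were left to test and 2 were called at each time. The methods' t-test with adjusted p-values called 0 members and 0 genes in any comparison; with unadjusted p-values, an alternative chosen after seeing the data, it called 1 member (Ifi202b) between 48 h and 24 h, as did limma with unadjusted p-values. Under that adjusted t-test the fitted changes stood but no longer passed: Ifi202b 1.45 and 3.14, Ifi203 6.42 and 6.70, Ifi204 1.72 and 1.98, Mndal 4.60 and 5.32 (adjusted p from 0.132 to 0.219). Ifi203 and Mndal kept their calls in every other setting that tested them but shrank, at 24 h and 48 h to 4.60 and 4.85 (Ifi203) and 3.68 and 4.41 (Mndal) with normexp and quantile normalization. Ifi202b lost calls. At 24 h it missed the threshold with quantile normalization (0.75), normexp (0.16), normexp and quantile normalization (0.021), no filter on dim probes (1.45, adjusted p = 0.0708) and the slide as a block (1.31, the same as leaving out the 24 h array alone on its slide). At 48 h normexp took it under 2-fold, 0.90 and 0.86 with quantile normalization. The cause was not tested. With arrays left out in turn, counts ran from 2 to 4 at 24 h, 3 to 4 at 48 h and 0 to 0 between the times.

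Left-out ranges of the log2 changes at 24 h were 1.17 to 1.73 for Ifi202b, 5.76 to 7.07 for Ifi203, 1.61 to 1.84 for Ifi204 and 4.43 to 4.77 for Mndal. At 48 h they were 2.87 to 3.42, 6.05 to 7.35, 1.71 to 2.25 and 5.02 to 5.61 in the same order. Between 48 h and 24 h they were 1.47 to 1.91, -0.13 to 0.70, -0.016 to 0.52 and 0.42 to 1.02; without 48 h replicate 2 the difference turned negative in Ifi203 (-0.13) and Ifi204 (-0.016). In no alternative did a called change turn its direction. Median centring lowered all genes by 0.30 at 24 h and 0.10 at 48 h and took the share of higher calls from 73.8% to 43.5% and from 73.0% to 61.3%; the members' counts stayed at 4 and 4. The replicate numbers are shared by the groups but the labels tie them to nothing. Deviations of same-numbered arrays correlated at 0.165 to 0.249 across probes, and with the replicate block 4, 4 and 0 members were called. Dim baselines limit Ifi202b, Aim2, Pydc4 and Il18, for which the arrays give bounds that rest on the chosen floor, or no level.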
